A study of Mus musculus with 24 samples.

Results

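Healthy choroid of Ceacam1-/- mice was compared with that of wild type mice that had received no laser treatment. The libraries were those labelled laser_no, 8 of the 24 in the series, of which 4 were wild type (libraries 21, 22, 26 and 27) and 4 Ceacam1-/- (libraries 23, 24, 25 and 28). The Ceacam1-/- mice were homozygous for a deletion of exons 1 and 2 of Ceacam1, came from matings of heterozygous mice on a C57BL/6J background, and were set against wild type littermates. The age given for mice of the study in general is 6 to 8 weeks, males and females were included, and the lines did not carry rd8, a mutation that some laboratory strains have. Sex and age are not labelled for single libraries, and nothing in the labels says that each library came from a separate animal, so p-values measure only the spread between these libraries. The other 16 libraries, 9 wild type and 7 Ceacam1-/-, came from mice whose eyes had received laser spots to induce choroidal neovascularization, and they served here only as separate libraries for the same genotype contrast. The deletion is constitutive, so every cell type in the tissue carries it.

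CEACAM1 is a cell adhesion molecule of the immunoglobulin superfamily that is found on epithelial, endothelial and immune cells. Its long cytoplasmic form carries inhibitory motifs that recruit the tyrosine phosphatases SHP-1 and SHP-2, and in the liver it promotes the clearance of insulin. The choroid is the vascular layer behind the retina: it holds fenestrated capillaries, larger vessels, melanocytes, fibroblasts, macrophages, mast cells and nerves, and it nourishes the retinal pigment epithelium (RPE) and the photoreceptors. In a dissected mouse eye cup it stays attached to the RPE on its inner side and to the sclera, with the eye muscles, on its outer side. In the study's cell sorting methods the whole complex of RPE, choroid and sclera is called choroid.

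RNA was read from SMART-Seq libraries, and the values are normalized counts: estimated reads per gene, scaled for the size of the library and the length of the transcripts. The values of a library summed to 23979741 to 27093809 in wild type mice (median 25759861) and to 23819561 to 35094410 in Ceacam1-/- mice (median 26530696). Between 25021 and 27776 genes per library were above 0. Differences between genotypes are given as the mean of log2(normalized count + 1) in Ceacam1-/- minus that in wild type libraries, with the standard error (SE) from limma, and values by library are given in the order 21, 22, 26, 27 for wild type and 23, 24, 25, 28 for Ceacam1-/-.

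The genotype was first checked in Ceacam1 itself (ENSMUSG00000074272), which the annotation of GRCm39 places on the minus strand at chr7:25161128-25177257. Exon 2 of its canonical transcript spans chr7:25175769-25176128, is 360 bases long and is coding throughout. It encodes the amino-terminal immunoglobulin domain through which CEACAM1 molecules bind each other. The deletion removes exons 1 and 2, whereas the deposited value of a gene sums the reads of all its transcripts, so reads from exons 3 to 8 still count. The end of intron 1 (lower case) and the first 220 bases of exon 2 (capitals), at chr7:25175909-25176158 on the minus strand, show the sequence that the knockout allele lacks.

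Ceacam1 intron 1 and exon 2: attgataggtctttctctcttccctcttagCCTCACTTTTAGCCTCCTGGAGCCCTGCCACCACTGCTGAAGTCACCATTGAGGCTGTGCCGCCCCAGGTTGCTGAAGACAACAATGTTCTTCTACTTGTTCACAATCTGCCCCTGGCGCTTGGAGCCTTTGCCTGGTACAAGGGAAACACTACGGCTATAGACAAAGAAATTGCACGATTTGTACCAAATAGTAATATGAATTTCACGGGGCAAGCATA

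The normalized count of Ceacam1 was 958, 5027, 1242 and 4596 in wild type and 405, 505, 508 and 1171 in Ceacam1-/- libraries. Library 28 of the Ceacam1-/- mice lay above the lowest wild type library, so the groups overlapped. The log2 difference was -1.95 (SE 0.60), with a limma p of 0.00988 and a Benjamini-Hochberg adjusted p of 0.999, and the two-sided exact permutation p was 0.0571. Of the 31-base words in the annotated transcripts of Ceacam2, its neighbour 0.0382 Mb away, 55.1% also occur in Ceacam1, and 31.1% of those of Ceacam1 occur in other genes, mostly Ceacam2, so reads of the 2 genes can be shared out wrongly. The normalized count of Ceacam2 was 19.9, 10.8, 0 and 5.79 in wild type and 29.4, 11.3, 22.1 and 74.9 in Ceacam1-/- libraries. These values were far below those of Ceacam1 in every library, and the groups overlapped. The log2 difference of Ceacam2 was 2.15 (SE 1.01), with a limma adjusted p of 0.999 and a two-sided exact permutation p of 0.0571. The counts of the 10 surface epithelium markers, which make the keratins and junction proteins of cornea and conjunctiva, were highest in the libraries with the highest Ceacam1 of each genotype. Their sum was 447063 and 96788 in the wild type libraries with high Ceacam1 (22 and 27) and 1933 and 4166 in those with low Ceacam1 (21 and 26). Among Ceacam1-/- libraries it was 572307 in library 28. In the other 3 it did not follow Ceacam1, with 16729 in library 23, which had the lowest Ceacam1, 2963 in library 24 and 7271 in library 25. The part of these cells in the Ceacam1 values was not tested.

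**Figure D1:**
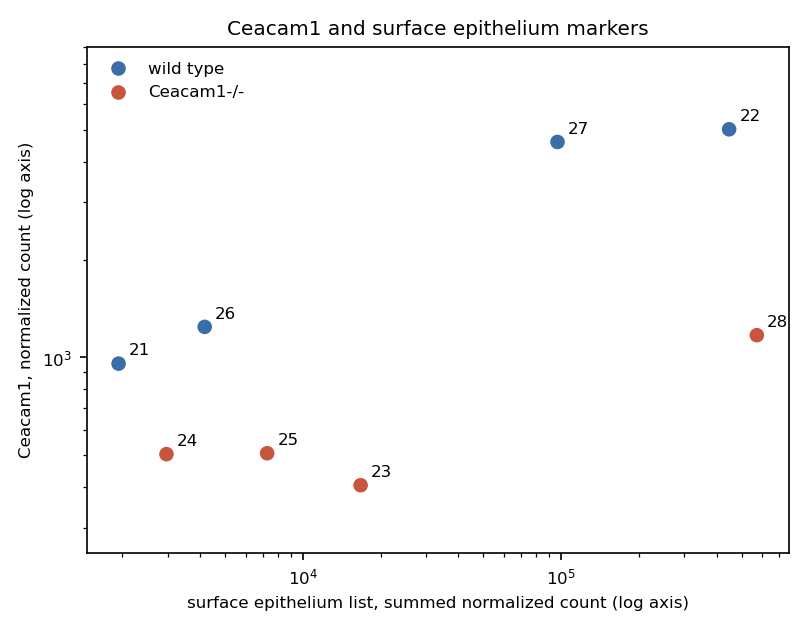
Normalized count of Ceacam1 (vertical log axis) against the summed normalized count of 10 surface epithelium markers (horizontal log axis), 1 point per library, labelled by library number and coloured by genotype. Libraries 22 and 27 carry the highest Ceacam1 of the wild type group and library 28 that of the Ceacam1-/- group, and these 3 libraries also hold the highest epithelial sums.

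The tissue label was then checked against its defining markers. All 14 endothelial genes were above the filter and were measured in every library. The 2 most abundant of them, Plvap, which forms the diaphragms of fenestrated capillaries, and Egfl7, a protein secreted by endothelium, had mean normalized counts per kilobase of transcript of 3593 and 3123. The 12 RPE genes were summed to 196562 to 1006923 and the 10 melanin synthesis genes to 45757 to 132864, so the layers of the choroid and RPE were present in all 8 libraries. Genes of tissues that do not belong to the choroid were also abundant, and they set libraries apart.

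The first principal component of the 20057 genes tested (those whose normalized counts averaged 10 or more over the 8 libraries) took 38.6% of the variance between the 8 libraries. It placed Ceacam1-/- library 23 (136) and wild type library 21 (113) at one end and Ceacam1-/- library 25 (-114) at the other. Of the 200 genes with the largest weights on it, 196 pointed to the side of libraries 23 and 21, and they included 10 of the 14 rod genes and 4 of the 12 inner retinal neuron genes. The second component took 26.5% and placed Ceacam1-/- library 28 (111), wild type library 22 (89.6) and wild type library 27 (48.8) on one side. The 198 leading genes on that side included 8 of the 10 surface epithelium markers. Both components put libraries of both genotypes together. Counts of Ddx3y, Eif2s3y, Kdm5d and Uty, genes of the Y chromosome, summed to 7762 in library 21 and 5256 in library 25 and to at most 9.56 in the other 6 libraries, so 1 library of each genotype carried them. The third component, which took 10.1%, was highest in library 25 (87.1), and Ddx3y and Eif2s3y led the genes on that side.

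Mitochondrial and muscle genes were the largest groups among the most abundant genes. Ranked by mean normalized count per kilobase, 7 of the first 20 genes were encoded in the mitochondrial genome, led by mt-Co3 and mt-Atp6, subunits of cytochrome c oxidase and of ATP synthase, at 322252 and 285270 per kilobase. Fast skeletal muscle gave 4 of the 20, the myosin light chain Myl1 (90939 per kilobase), the troponins Tnnc2 (89516) and Tnni2 (66112), and the actin Acta1 (73618). Ttr, the transthyretin that carries thyroxine and retinol-binding protein and is made in the RPE, stood at 134629 per kilobase. Ptgds, the prostaglandin D synthase of eye and meninges, stood at 135634 and Cst3, the protease inhibitor cystatin C, at 127871. With the longest transcript in place of the canonical one, 17 of the 20 genes were shared. Among the first 200 genes per kilobase, 15 were mitochondrial, 11 belonged to the muscle list, 5 each to the RPE and rod lists, 4 to the surface epithelium list and 2 to the melanin list. No member of the endothelial, pericyte, fibroblast or macrophage list reached these 200.

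**Figure D2:**
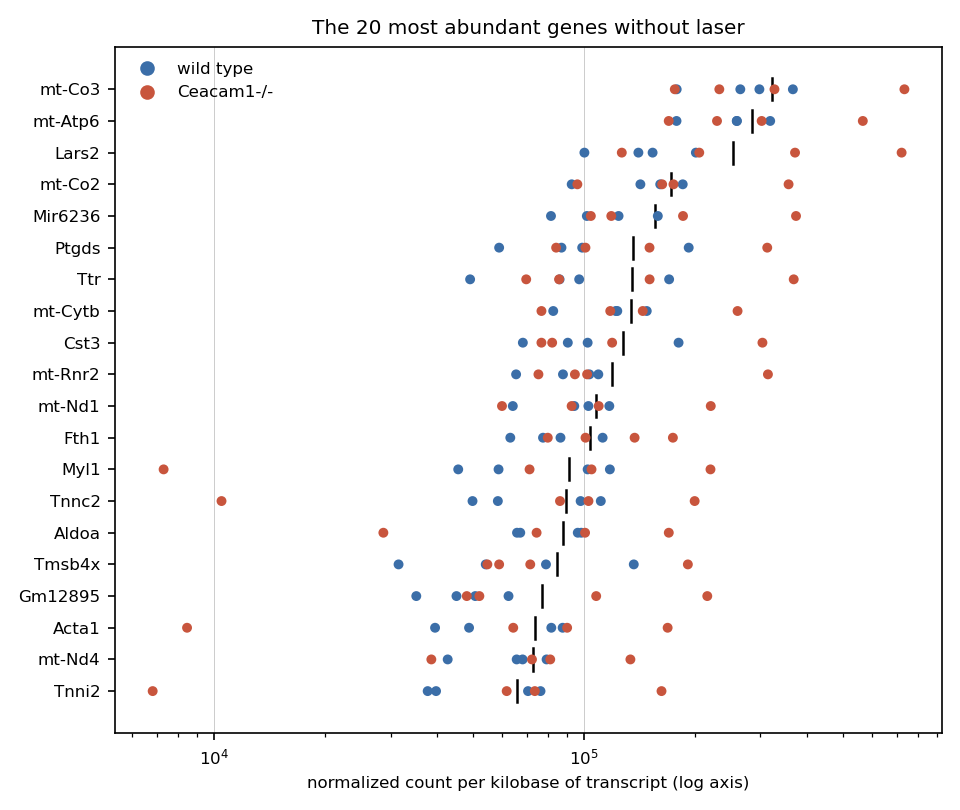
The 20 genes of highest mean normalized count per kilobase of canonical transcript (horizontal log axis), 1 point per library coloured by genotype, with a black line at the mean. For Myl1, Tnnc2, Acta1 and Tnni2, 1 Ceacam1-/- library (library 23) lies far below the others, and 1 Ceacam1-/- library (library 25) is the highest for each of the mitochondrial genes.

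Lars2, the mitochondrial leucyl-tRNA synthetase, had the highest mean normalized count of any gene. It held 1.65%, 2.04%, 3.10% and 2.32% of the total in wild type libraries and 2.09%, 3.08%, 8.09% and 5.45% in Ceacam1-/- libraries. Library 25 stood highest, library 28 next, and the other 2 Ceacam1-/- libraries lay within the wild type range. The annotated microRNA locus Mir6236 and the processed pseudogene Gm12895 followed the same order at the top: Gm12895 reached 48690 in library 25 and 24387 in library 28, against 7960 to 14132 in the other 6 libraries. The ribosomal RNA gene Rn18s-rs5 was high in the same libraries, at 318782 in library 28 and 200222 in library 25. It was at 29521 to 65208 in the other 6 libraries. Words shared with other genes were not counted for Lars2, Mir6236, Gm12895 or Rn18s-rs5. Whether the values of these genes, that of Lars2 included, hold reads from other genes was therefore not tested. Genes of the mitochondrial genome took 3.18%, 4.18%, 4.75% and 5.59% in wild type and 3.18%, 5.10%, 7.97% and 4.11% in Ceacam1-/- libraries, again with library 25 highest. Library 25 also had the fewest genes above 0 (25021) and the largest share of its counts in its 20 leading genes (25.2%, against 10.4% to 16.3% in the other libraries).

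Surface epithelium, rod and lens genes varied most between libraries among the tissue lists. The 10 surface epithelium markers differed 296-fold between the highest and the lowest library, the 14 rod genes 79.5-fold, and the 12 lens genes 63.5-fold, whereas the 14 endothelial genes differed 2.12-fold and the 14 macrophage genes 1.99-fold. Within genotypes, the members of the surface epithelium list had a median standard deviation of 4.99 on the log2 scale, those of the rod list 2.70, the lens list 2.59 and the muscle list 1.37, against 0.558 over all genes tested. The median was 0.49 for endothelial and 0.50 for macrophage genes, below that of all genes. Cells found in the choroid were not all as even, with a median of 1.31 for mast cell and 1.61 for erythroid genes, whose sums differed 4.35-fold and 17.5-fold. In bulk tissue a lower sum can mean fewer cells of a type or less RNA per cell, and these cannot be told apart.

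Rod genes gave the first of these patterns. Gnat1, the rod transducin, had normalized counts of 142058, 24741, 3082 and 69921 in wild type and 152477, 7114, 1053 and 4627 in Ceacam1-/- libraries. Libraries 21 and 23, 1 of each genotype, were highest, and the groups overlapped over nearly the whole range. The summed rod list took 2.65% of all counts in library 21, 2.88% in library 23 and 0.0246% in library 25. Cone genes had the same leading libraries, with sums of 21427 in library 21 and 18900 in library 23 and 1351 to 8801 elsewhere.

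Surface epithelium showed more than 1 mixture. Krt15, a keratin of basal epithelial cells, was at 13.3, 34198, 1.86 and 48779 in wild type and 6503, 209, 1938 and 204359 in Ceacam1-/- libraries, so libraries 22, 27 and 28 were high. Krt12, the keratin of corneal epithelium, was at 175232 in library 22 and 61194 in library 28 but at 3.02 in library 27. Aldh3a1, the aldehyde dehydrogenase that is abundant in cornea, was at 114127 in library 22 and 59325 in library 28 and at 5270 in library 27. Krt4 and Krt13, keratins of moist stratified epithelium such as conjunctiva, were at 9710 and 4269 in library 27, against 12.5 and 63.0 in library 21. Library 27 therefore carried the keratins of the list without the corneal one, whereas libraries 22 and 28 carried both.

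Lens crystallins were high in 1 library of each genotype. Cryaa, the alpha crystallin of lens fibres, reached 7643 in wild type library 22 and 15726 in Ceacam1-/- library 24 and lay between 49.9 and 329 in the other 6. The sum of the 12 lens genes was 19497 and 37844 in these 2 libraries and 596 to 974 elsewhere.

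Myelin genes were high in library 23. Mbp, the myelin basic protein, was at 15292, 12018, 6278 and 1325 in wild type and 375721, 10473, 24351 and 2896 in Ceacam1-/- libraries. To see which kind of myelin this was, genes of oligodendrocytes and of Schwann cells were listed separately, after these values were seen. Mobp, an oligodendrocyte protein, was at 123145 in library 23 and at 8.67 to 5676 elsewhere, and Mog, on the surface of central myelin, was at 4752 against 0 to 221. Of the 8 genes of that list, 7 were highest in library 23, and Mal, which epithelium also makes, was highest in library 22 (18540 against 12556 in library 23). The 4 peripheral myelin genes summed to 8171 in library 23, inside the range of 7153 to 16952 in the other libraries. Gfap, the filament of astrocytes and reactive Müller glia, was likewise highest in library 23, at 42060 against 592 to 9530. Central myelin genes and Gfap thus set library 23 apart from the other 7, whereas its rod and cone sums, and its inner retinal neuron sum of 27111 against 26049, lay close to those of wild type library 21.

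The same library held the least muscle. Acta1, the skeletal muscle actin, was at 65241, 134498, 80613 and 144333 in wild type and 13937, 148421, 277408 and 106130 in Ceacam1-/- libraries. The 16 muscle genes summed to 107846 in library 23, 2071015 in library 25 and 632563 to 1281695 in the others, which is 0.453%, 5.90% and 2.58% to 4.89% of all counts. RPE genes were highest in libraries 25 (1006923) and 26 (721714), 1 of each genotype, and lowest in libraries 22 (196562) and 28 (233614), those with the most corneal keratin. Fibroblast and sclera genes, led by Dcn, the collagen-binding proteoglycan decorin, and Col1a1, the main collagen of sclera, were lowest in library 23 (48900) and highest in library 28 (257174).

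**Figure D3:**
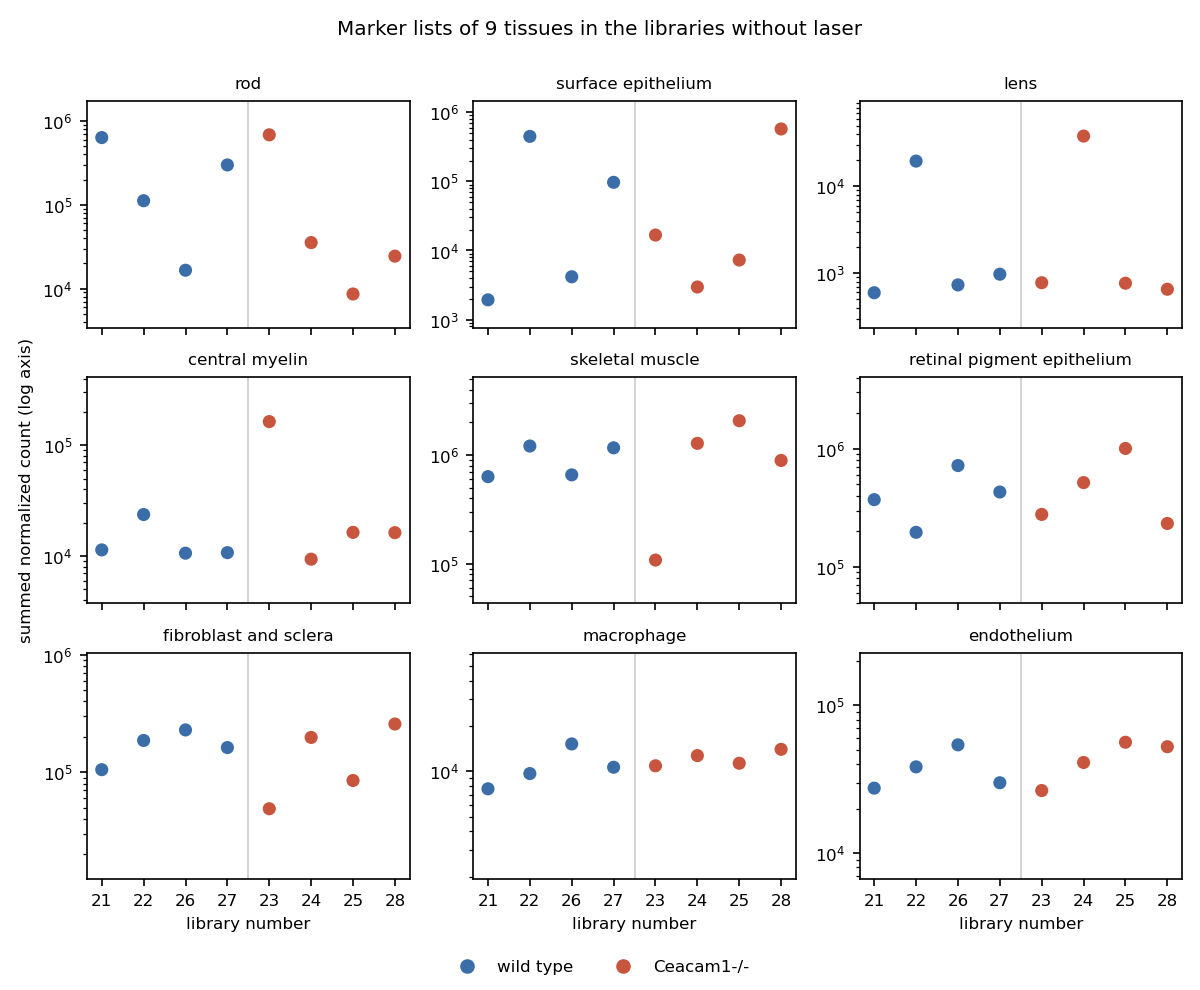
Summed normalized count of the marker genes of 9 tissues (vertical log axes, each panel with its own range) in the 8 libraries, ordered by genotype and library number. Rod, surface epithelium, lens, central myelin and skeletal muscle sums jump by over 10-fold between libraries of at least 1 genotype. Endothelium and macrophage sums stay within 2.12-fold and 1.99-fold over all 8.

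No gene differed between genotypes past the threshold in limma without a sex covariate. With DESeq2 and sex as a covariate, the study did report genes at an adjusted p under 0.05 in choroid. Of the 20057 genes tested with limma, 0 (0%) had a Benjamini-Hochberg adjusted p under 0.05 and 307 (1.53%) an unadjusted p under 0.05, of which 205 (1.02% of all genes) were higher and 102 (0.509%) lower in Ceacam1-/- mice. The lowest adjusted p was 0.0512, of the long noncoding RNA Gm20463, and the next was 0.999. Gm20463 was at 0, 0, 0 and 0 in wild type and 41.3, 68.7, 126 and 56.0 in Ceacam1-/- libraries. Its log2 difference was 6.09 (SE 0.58) without laser and 1.1 (SE 1.4) with it. All 4 Ceacam1-/- libraries lay above all wild type libraries for 185 genes (0.922%) and below them for 87 (0.434%). The median log2 difference over all genes was -0.02, and 48.0% of the genes were higher in Ceacam1-/- libraries. With 4 against 4 libraries, the smallest two-sided exact permutation p is 0.0286. Without library 23, 1752 genes had an unadjusted p under 0.05. The values below therefore describe the genes of lowest p, not changed genes, and each was chosen for its p in these libraries.

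Rasal3 and Inpp5d, which restrain signalling in blood cells, were among the 12 protein-coding genes of lowest p that lay higher in Ceacam1-/- choroid. Rasal3, a Ras GTPase-activating protein of haematopoietic cells, was at 12.75, 36.04, 30.03 and 17.02 in wild type and 78.9, 89.7, 84.0 and 100.0 in Ceacam1-/- libraries. Inpp5d, which encodes SHIP1, the inositol phosphatase that dampens signalling downstream of PI3-kinase in leukocytes, was at 161, 296, 383 and 222 in wild type and 467, 443, 773 and 863 in Ceacam1-/- libraries. Neither pair of groups overlapped, and the log2 differences were 1.94 (SE 0.43) and 1.27 (SE 0.34), each with an adjusted p of 0.999. The sum of the 14 macrophage genes, beside these, was 7654, 9661, 15193 and 10639 in wild type and 10881, 12719, 11310 and 13997 in Ceacam1-/- libraries, and these groups overlapped. The neutrophil list summed to 178, 257, 301 and 175 in wild type and 326, 279, 337 and 367 in Ceacam1-/- libraries. The lymphocyte list summed to 81, 141, 287 and 187 against 100, 122, 128 and 210, and the groups overlapped for both lists. The part of leukocyte number in the 2 genes was not tested.

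In the laser-treated libraries both genes had differences below 0. The log2 difference there was -0.27 (SE 0.33) for Rasal3 and -0.74 (SE 0.28) for Inpp5d, with limma adjusted p of 0.618 and 0.164. The interaction of genotype and laser was 2.21 for Rasal3 and 2.01 for Inpp5d, with an adjusted p of 0.640 for both, and 0 of 19950 genes (0%) passed the threshold for it.

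C4b, which encodes complement component C4, was at 1116, 1473, 1637 and 1431 in wild type and 4516, 2248, 2503 and 2670 in Ceacam1-/- libraries. The groups did not overlap, with library 23 highest, and the log2 difference was 1.03 (SE 0.25; adjusted p of 0.999). Of the words of C4b, 42.0% also occur in its neighbouring copy C4a, so the 2 genes may share reads. In the laser-treated libraries the difference was -0.35 (SE 0.24). The other complement genes were spread around 0. Of the 15 tested, C4b included, 5 were higher and 10 lower, and the median log2 difference was -0.09, whereas without library 23, 10 were higher (median 0.11). C1qb, a chain of the initiating C1q complex, had a log2 difference of 0.26 (SE 0.22).

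The other genes among these 12 had varied roles. Safb, a nuclear matrix protein that binds RNA and DNA, was at 1564, 1776, 1765 and 1618 in wild type and 2245, 2285, 2438 and 2800 in Ceacam1-/- libraries, without overlap. Rtel1, a helicase that protects telomeres, was at 412, 417, 510 and 466 against 638, 616, 786 and 705. Sfxn2, a sideroflexin of the mitochondrial membrane, was at 395, 343, 374 and 356 against 555, 506, 690 and 579. These 3 genes differed by 0.54 to 0.66 on the log2 scale, and in the laser-treated libraries by 0.39 for Safb, 0.52 for Rtel1 and 0.50 for Sfxn2. Dus4l, a dihydrouridine synthase of transfer RNA, differed by 0.96 (SE 0.29) without and 0.59 (SE 0.42) with laser. Of the 12 genes, 10 had groups without overlap, beside 0.922% of all genes, which follows from their choice by p in these libraries, and 7 differed by less than 1 on the log2 scale. In the laser-treated libraries 8 of the 12 had the same direction, beside 47.3% of all genes. Gm14419, a zinc finger gene that was listed at 0 in 3 wild type libraries, shares 95.7% of its words with other genes, so its value is uncertain.

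Among the 12 protein-coding genes of lowest p that lay lower, Ceacam1, Zfp526 and Slc1a5 are on chromosome 7. Of these, Ceacam1 is the deleted gene itself. Among the 12 that lay higher, Rasal3, C4b and Safb are on chromosome 17. The share of all genes tested that lie on chromosome 7 or 17 was not counted, so neither number can be read as a cluster. The noncoding Gm20463, at chr17:34820063-34822575, lies near C4b, at chr17:34947354-34962912. Zfp526, a zinc finger gene 0.233 Mb from Ceacam1, was at 91.4, 82.8, 141 and 69.7 in wild type and 32.7, 15.8, 17.2 and 11.9 in Ceacam1-/- libraries. Slc1a5, the neutral amino acid transporter that brings glutamine into cells and lies 8.63 Mb from Ceacam1, was at 1105, 1400, 1722 and 1453 in wild type and 644, 1039, 757 and 877 in Ceacam1-/- libraries. Neither pair of groups overlapped, and the log2 differences were -2.30 (SE 0.44) and -0.78 (SE 0.22). With laser they were -1.61 (SE 0.33) and -0.79 (SE 0.22), with limma adjusted p of 0.0822 and 0.116. The noncoding Gm10648, 3.38 Mb away on the same chromosome, was higher, at 14.6, 14.4, 20.1 and 9.33 in wild type and 42.4, 79.7, 111 and 124 in Ceacam1-/- libraries.

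Outside chromosome 7, B3gnt2, a glycosyltransferase that extends polylactosamine chains, was at 1239, 1403, 2172 and 1344 in wild type and 1132, 952, 769 and 943 in Ceacam1-/- libraries. It differed by -0.67 (SE 0.22) without and by -0.74 (SE 0.30) with laser, and 37.5% of its words occur in other genes. Btg1, an antiproliferative gene, differed by -0.73 (SE 0.24) without laser but by 0.05 (SE 0.14) with it. Fcrl1, an Fc receptor-like protein of B cells, was at 22.1, 37.4, 32.4 and 14.5 in wild type and 0.699, 6.27, 8.58 and 6.97 in Ceacam1-/- libraries. Sirpb1c and Gal3st2 share 42.9% and 76.6% of their words with other genes, and their values are uncertain. Of the 12 lower genes, 9 had groups without overlap, beside 0.434% of all genes, which again follows from their choice by p. Of the 10 that passed the filter with laser, 8 had the same direction there.

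The separate laser-treated libraries gave 4 genes (0.0202%) past the adjusted threshold and 4479 (22.7%) at an unadjusted p under 0.05, out of 19757. Among the 4 was the processed pseudogene Gm45246, with a log2 difference of 3.80 (SE 0.54) and a limma adjusted p of 0.00875. Without laser it had rank 2 by p, with a difference of 3.97 (SE 0.65) and an adjusted p of 0.999. Its values there were 1.71, 0, 0.917 and 0 in wild type and 27.3, 30.2, 14.1 and 22.6 in Ceacam1-/- libraries. Of its 31-base words, 39.8% also occur in Hnrnpl. Of all 19216 genes tested in both sets, 47.3% had the same direction of the genotype difference. Of the genes at an unadjusted p under 0.05 without laser, 131 of the 186 higher genes and 66 of the 96 lower genes that were tested in both had the same direction with laser.

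**Figure D4:**
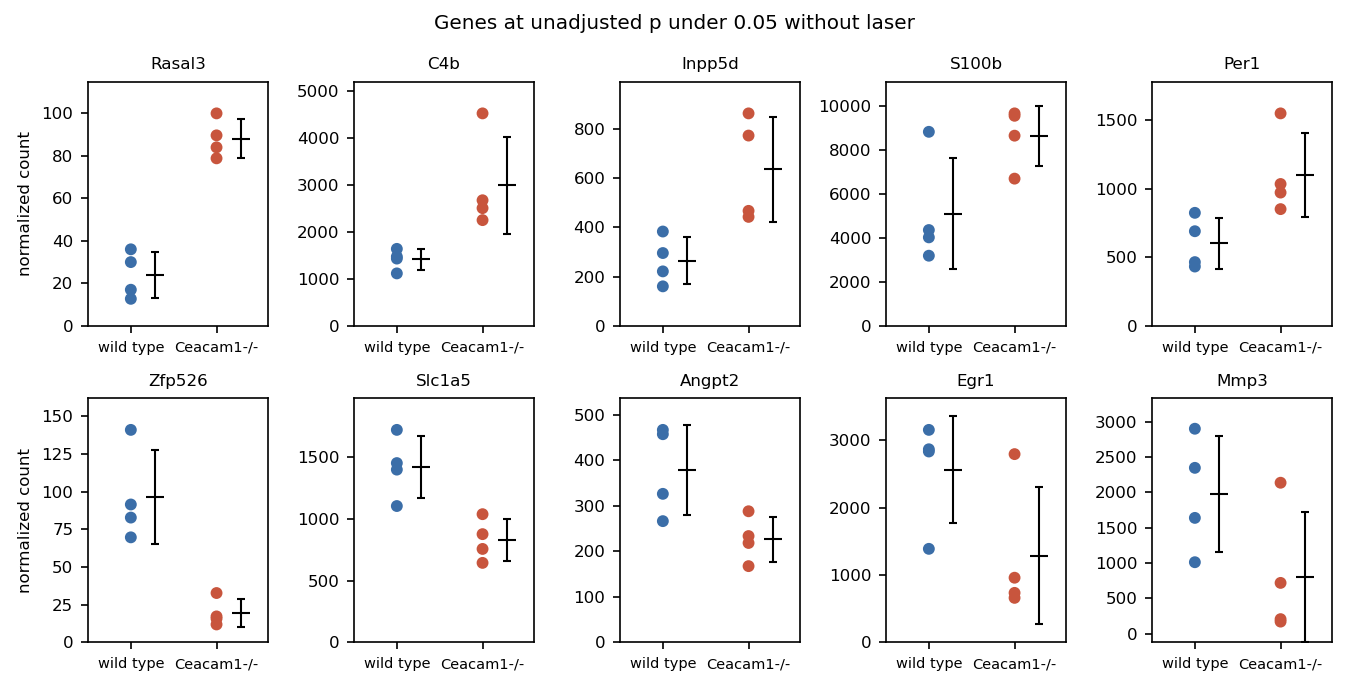
Normalized counts (vertical axes, linear, from 0 except for Mmp3, where the error bar passes 0) of 10 named genes at an unadjusted p under 0.05, 1 point per library, with the mean and standard deviation of 4 libraries beside them. Rasal3, C4b, Inpp5d, Per1, Zfp526 and Slc1a5 have groups without overlap, whereas the groups overlap for S100b, Angpt2, Egr1 and Mmp3.

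Pathways were compared as 24 lists of genes. Leaving out 1 of the 8 libraries turned the sign of the median in 18 of the 24 lists, and leaving out library 23 alone turned it in 12. Beside the 48.0% of all genes that were higher in Ceacam1-/- libraries, 17 of the 18 interferon-stimulated genes and 9 of the 10 genes of MHC class I presentation were higher, with median log2 differences of 0.47 and 0.27. Only Xaf1, an interferon-induced promoter of apoptosis, had an unadjusted p under 0.05 among them, beside 1.53% of all genes. It was at 478, 681, 624 and 544 in wild type and 731, 762, 885 and 1325 in Ceacam1-/- libraries. Isg15, the ubiquitin-like modifier induced by interferon, was at 152, 707, 317 and 514 in wild type and 476, 407, 397 and 3071 in Ceacam1-/- libraries. Library 28, with the most surface epithelium, stood above all others, and library 21 below. The interferon list summed to 10713, 19234, 18746 and 16960 in wild type and 17635, 18283, 18725 and 37498 in Ceacam1-/- libraries, so 3 of the 4 Ceacam1-/- libraries lay within the wild type range. Without library 28, 15 of the 18 interferon genes and 3 of the 10 MHC class I genes were higher, with medians of 0.20 and -0.12, and without library 21 the interferon median was 0.18. With laser, 16 of the 18 and 3 of the 10 were higher, with medians of 0.38 and -0.07.

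The partners of CEACAM1 and the genes of insulin signalling were split evenly over the 8 libraries, with 8 of 16 higher and a median of -0.02, but without library 23, 13 of 16 were higher (median 0.14). Ptpn6 and Ptpn11, which encode SHP-1 and SHP-2, had log2 differences of -0.10 (SE 0.39) and 0.18 (SE 0.16). Insr, the insulin receptor, was at 2074, 1567, 2452 and 1947 in wild type and 2287, 2908, 2977 and 2740 in Ceacam1-/- libraries, a difference of 0.45 (SE 0.19), and 0.08 (SE 0.17) with laser. Fasn, the fatty acid synthase, differed by 0.61 (SE 0.29). Slc2a4, the insulin-responsive glucose transporter of muscle, was at 541 in library 23 and 2363 to 5440 in the others, low in the library with the least muscle.

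Vessel lists had members on both sides of 0. Of the 10 VEGF ligands and receptors, 6 were higher, with a median of 0.05 and of 0.39 without library 23, and Nrp1, a co-receptor of VEGF, differed by 0.04 (SE 0.33). Of the 8 angiopoietin and Tie genes, 3 were higher, with a median of -0.03. In this list, 6 genes were higher without library 26 (median 0.19) and 2 without library 21 (median -0.14). Over all 8 libraries the log2 differences of its genes ran up to 1.01 (SE 0.57) for Angptl4, an inhibitor of lipoprotein lipase. Angpt2, the angiopoietin that destabilizes vessels by antagonizing Tie2, was at 327, 458, 467 and 267 in wild type and 234, 219, 168 and 288 in Ceacam1-/- libraries. Its groups overlapped through library 28, and its log2 difference was -0.73 (SE 0.28) without laser and -0.85 (SE 0.26) with laser, with limma adjusted p of 0.999 and 0.131. Of the 14 endothelial genes, 9 were higher without laser, with a median of 0.27, and 0 of 14 with laser, with a median of -0.54. With laser this was so in other tissue lists too, with 0 of 12 pericyte and smooth muscle genes higher (median -0.77), 0 of 12 RPE genes (median -1.54), 0 of 16 skeletal muscle genes (median -1.33), 0 of 13 fibroblast and sclera genes (median -0.42) and 0 of 10 melanin genes (median -1.05). Without laser, the endothelial median was 0.51 without library 23 and 0.05 without library 25. Of the 12 pericyte and smooth muscle genes, 7 were higher, with a median of 0.02, and Acta2, the smooth muscle actin, differed by -0.08 (SE 0.36). Without library 23, 11 of these 12 genes were higher (median 0.24), and without library 28, 4 of them (median -0.13). Leukocyte adhesion genes were 7 of 11 higher, with a median of 0.09, but 4 of 11 without library 28, with a median of -0.13, and Icam1, the endothelial ligand of leukocyte integrins, differed by 0.07 (SE 0.38).

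Immune lists beyond interferon showed no common direction. Macrophage genes were 9 of 14 higher (median 0.18), MHC class II genes 2 of 7 (median -0.12), chemokines and cytokines 9 of 15 (median 0.05), mast cell genes 4 of 7 (median 0.06), lymphocyte genes 3 of 7 (median -0.05) and neutrophil genes 4 of 5 (median 0.64). Without library 23, 6 of the 7 MHC class II genes were higher (median 0.23). The mast cell median was 0.73 without library 23 and -0.38 without library 21, when 1 of 7 was higher. Without library 21 the macrophage and lymphocyte medians were 0.05 and -0.58, and without library 26 they were 0.41 and 0.39. The neutrophil median was 0.31 without library 21. Chemokines and cytokines were 5 of 15 higher without library 21 (median -0.23) and 10 of 15 without library 26 (median 0.29). The tested neutrophil and lymphocyte genes were few and low, with list sums of at most 367 and 287. Cma1, the chymase of connective tissue mast cells, was at 79.6, 191, 289 and 245 in wild type and 38.4, 485, 419 and 231 in Ceacam1-/- libraries. Hp, the haemoglobin-binding haptoglobin of the acute phase, was at 78.4, 61.9, 134 and 64.8 in wild type and 29.0, 54.7, 21.7 and 35.8 in Ceacam1-/- libraries, without overlap. Its log2 difference was -1.25 (SE 0.43), and -1.06 (SE 0.54) with laser. The metallothionein Mt1, which binds zinc and copper, was at 72024 in library 25 and 9291 to 31374 in the others. Haemoglobin Hba-a2 ranged from 246 in library 21 to 4680 in library 25, with overlapping groups.

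Of the immediate early and of the circadian clock genes, 1 each of the 16 tested had an unadjusted p under 0.05, beside 1.53% of all genes. Egr1, an immediate early transcription factor, was at 1390, 2869, 2836 and 3157 in wild type and 736, 961, 662 and 2797 in Ceacam1-/- libraries, a log2 difference of -1.19 (SE 0.47) without and -0.17 (SE 0.31) with laser. Library 28 lay within the wild type range and had the highest sum of the immediate early list, 29083 against 14032 to 24852. Of the 16 genes of that list, 4 were higher, with a median of -0.05. Without library 28, 2 were higher (median -0.44), and without library 23, 11 were higher (median 0.07). Per1, a repressor of the circadian clock, was at 691, 825, 465 and 433 in wild type and 852, 1550, 973 and 1035 in Ceacam1-/- libraries, without overlap. Its difference was 0.88 (SE 0.28) without and 0.93 (SE 0.27) with laser, with limma adjusted p of 0.999 and 0.119, while 6 of the 16 clock genes were higher, with a median of -0.10. The clock output genes Dbp and Tef differed by 0.25 (SE 0.42) and -0.04 (SE 0.21). The hour of sampling is not given in the labels.

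Matrix, metabolic and stress lists had medians between -0.18 and 0.16, several of which turned on 1 library. Collagens and crosslinking enzymes were 6 of 20 higher (median -0.13), metalloproteinases and their inhibitors 6 of 15 (median -0.06), TGF-beta signalling genes 5 of 17 (median -0.07) and Wnt signalling genes 7 of 18 (median -0.03). Mmp3, the stromelysin that cleaves matrix proteins, was at 1012, 2903, 2349 and 1640 in wild type and 171, 719, 206 and 2138 in Ceacam1-/- libraries, with library 28 inside the wild type range. It differed by -1.93 (SE 0.76) without and 0.28 (SE 0.60) with laser. Glycolysis and hypoxia genes were 4 of 19 higher (median -0.10), nuclear oxidative phosphorylation genes 10 of 23 (median -0.02), cholesterol synthesis genes 4 of 16 (median -0.13), antioxidant genes 6 of 16 (median -0.11), tight junction genes 2 of 13 (median -0.16), chaperones 6 of 15 (median -0.18) and genes of the unfolded protein response 6 of 14 (median -0.15). Cell cycle genes were 7 of 16 higher (median -0.12), and of the acute phase and metallothionein genes 6 of 9 were higher (median 0.16). Without library 23, 21 of 23 oxidative phosphorylation genes (median 0.36), 12 of 20 collagens and crosslinking enzymes (median 0.21), 10 of 16 antioxidant genes (median 0.07) and 12 of 16 cell cycle genes (median 0.18) were higher. Without library 25, 0 of 23 oxidative phosphorylation genes (median -0.32) and 4 of 16 antioxidant genes (median -0.18) were higher. Without library 28, only 2 of 16 cell cycle genes (median -0.77) and 1 of 16 cholesterol synthesis genes (median -0.31) were higher. Cholesterol synthesis genes were 13 of 16 higher without library 22 (median 0.14) and 11 of 16 without library 25 (median 0.17).

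Tissue lists moved further, and with single libraries. All 14 rod genes were lower in Ceacam1-/- libraries (median -1.62) and higher with laser (median 2.02), and the median without laser was -2.99 without library 23 and -0.59 without library 25. Cone genes were 1 of 8 higher (median -1.04), with medians of -2.28 without library 23 and -0.52 without library 25. Inner retinal neuron genes were 2 of 12 higher (median -0.63), with medians of -1.91 without library 23 and -0.02 without library 21. All 16 muscle genes were lower (median -0.33), although their mean sum was higher in Ceacam1-/- (1088070 against 916619), and without library 23 all 16 were higher (median 0.61), while without library 25 the median was -0.76. Of the 10 surface epithelium genes, 7 were higher (median 1.79), and the median was -0.38 without library 28 and 3.53 without library 22. All 13 fibroblast and sclera genes were lower (median -0.34), and without library 23, 5 were higher (median -0.07), while without library 24 the median was -0.65. RPE genes were 5 of 12 higher (median -0.15), melanin genes 6 of 10 (median 0.02), retinal glia genes 5 of 7 (median 0.09), lens genes 6 of 12 (median 0.10), erythroid genes 5 of 5 (median 0.96) and adipocyte genes 0 of 6 (median -0.67). Without library 28, 10 of the 12 RPE genes were higher (median 0.23), and without library 22, 2 of the 12 (median -0.51). Without library 23, 2 of the 7 retinal glia genes were higher (median -0.17). Melanin genes were 2 of 10 higher without library 28 (median -0.09) and 8 of 10 without library 26 (median 0.29). The lens median was -1.24 without library 24 and 1.08 without library 22, the erythroid median 0.47 without library 21 and 1.73 without library 26, and the adipocyte median -0.27 without library 25. Of the 19 tissue lists, 9 had a median that turned sign when 1 of the 8 libraries was left out. Of the tissue list genes, S100b had an unadjusted p under 0.05 and no other did, beside 1.53% of all genes.

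In the list of Schwann cells and myelin, 9 of 10 genes were higher, with a median of 0.72 and of 0.30 without library 23. This list mixes both kinds of myelin: all 8 central myelin genes were higher (median 1.16) but 3 of 8 without library 23 (median -0.10), and 3 of the 4 peripheral myelin genes were higher (median 0.04). Peripheral myelin genes were 0 of 4 higher without library 27 (median -0.25) and 4 of 4 without library 26 (median 0.34). S100b, the calcium-binding protein of Schwann cells and other glia, was at 4025, 4358, 8822 and 3191 in wild type and 9551, 8647, 6694 and 9660 in Ceacam1-/- libraries, and the groups overlapped through wild type library 26. Its log2 difference was 0.86 (SE 0.32), and -0.83 (SE 0.43) with laser. Sox10, the transcription factor of Schwann cells and melanocytes, differed by 0.59 (SE 0.29) without laser and by -0.94 with it.

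**Figure D5:**
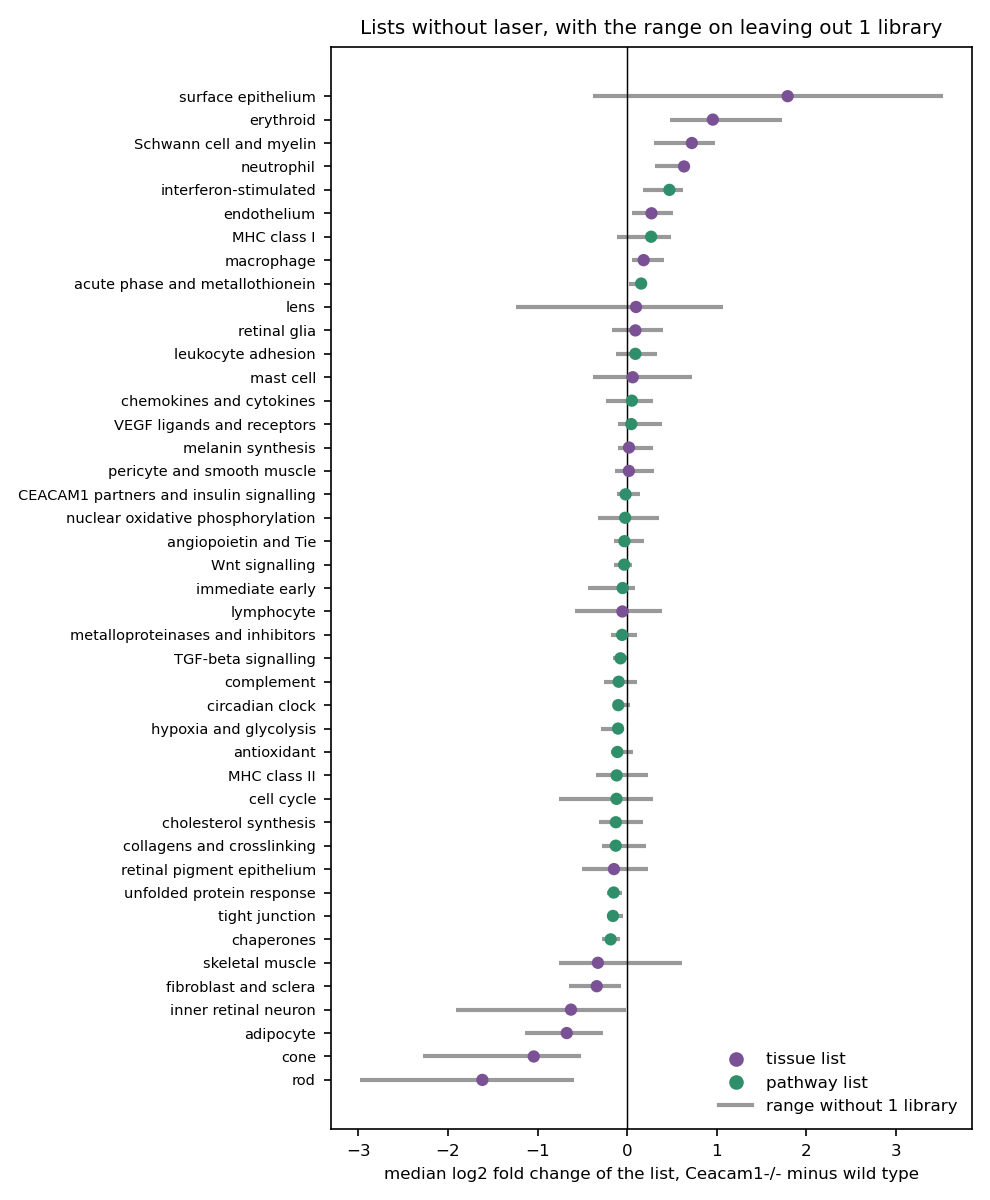
Median log2 difference between genotypes (horizontal axis, Ceacam1-/- minus wild type) of the 19 tissue lists and 24 pathway lists, with a grey line for the range of that median when each of the 8 libraries is left out in turn. Pathway medians lie between -0.18 (chaperones) and 0.47 (interferon-stimulated genes), and the widest ranges belong to the surface epithelium, rod, lens and inner retinal neuron lists.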

How the data were processed

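The 8 libraries without laser, 4 of each genotype, were analysed from the deposited table of 56065 genes and 24 libraries, whose groups were taken from the sample titles. The authors deposited signal values that are normalized counts, made by scaling the estimated reads of each gene. They checked reads with FastQC 0.11.5, quantified them with Salmon 1.10.3 against GRCm39 and normalized them with DESeq2 1.44.0, importing gene sums with transcript-length factors, so whole reads and exact depth are not recoverable and no count model was fitted. The study screened its libraries for outliers and left 1 out, which is not named. The groups that remained in its evaluation were 4 wild type and 4 Ceacam1-/-, the numbers of libraries without laser used here. It used sex as a covariate, which the labels do not give.

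Here log2(normalized count + 1) was tested with limma 3.58.1 (variance trend, two-sided, R 4.3.3) over genes with a mean of at least 10, with Benjamini-Hochberg adjustment at 0.05, in the 8 libraries, in the 16 laser-treated libraries, and for the interaction in all 24 libraries. The script was tested on simulated data. Single genes were also tested by exact permutation over 70 assignments. Lists are described by counts and medians with no test. Positions, types and lengths came from a later GENCODE release of the same build, which matched 99.1% of identifiers, and 31-base words from its 481956 transcripts. Tables and figures were made with matplotlib 3.10.9, scipy 1.17.1, numpy 2.4.6 and pandas 2.3.3 in Python 3.11.15.

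Named genes were Ceacam1, Ceacam2, Zfp526 and Rasal3; the 12 protein-coding genes and the 3 genes of any type of lowest p in each direction; the 20 most abundant per kilobase; of every list the 2 most abundant members and those at an unadjusted p under 0.05; and sex-linked genes. Values of some genes under this rule are not reported here. Other list members were named after their values were seen. The libraries, the genes that mark the comparison and the 19 tissue and 24 pathway lists were chosen with earlier results of these data known, and 2 lists of myelin genes after these values were seen. The alternatives changed the pseudocount to 0.5 or 10, the filter to none or to a mean of 50, the scaling to upper-quartile or quantile, and the fit to array weights, no variance trend, robust variances, a covariate of Y-linked genes, or the whole series, or left out 1 library in turn; for tissue sums, the percent of the total and leaving out the leading member; for abundance, the longest transcript.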

Additional observations from a re-analysis of the deposited data

Results flagged for a closer look

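Within each genotype, the library farthest from the other 3 was looked for in the list sums and in 29 genes, those of lowest p with Ceacam1, Ceacam2, Zfp526 and Rasal3. It stood apart in 20 of 144 groups of 4 (13.9%). Chance gives about 1 in 20 for normally spread values. The counts were taken here without logarithms and can be skewed, so that rate is only a guide. All values are normalized counts.

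Library 23 of the Ceacam1-/- mice stood above the other 3 for the rod (686224), cone (18900), inner retinal neuron (27111) and Schwann cell and myelin (588219) lists. Library 28 stood above the other Ceacam1-/- libraries for the surface epithelium (572307), interferon-stimulated (37498) and immediate early (29083) lists and for Ceacam1 (1171). Library 24 stood above them for the lens list (37844) and library 25 for ENSMUSG00000071793 (18.8), a pseudogene that shares 96.8% of its 31-base words with other genes.

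Among wild type libraries, library 26 stood above the others for the melanin synthesis (132864), VEGF ligand and receptor (34754) and metalloproteinase (119018) lists and for Bltp3b (840). Library 22 stood above them for the lens list (19497) and for the dynein gene Dnah10 (17.9). Library 21 stood below them for the MHC class I list (26604) and above them for Zfp933 (383). Library 27 stood above them for Gm14419 (98.2) and Trim43a (48.3).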

How the results depend on the processing

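The count of genes at an adjusted p under 0.05 was 0 and became 1 with array weights and 1 without a variance trend (Gm20463 in both, adjusted p of 0.00538 and 0.00201), and leaving out 1 library gave 0 to 1. The 307 genes at an unadjusted p under 0.05 became 758 without a filter, which tests 36056 genes, and 2773 with array weights, and leaving out 1 library gave 150 (without library 27) to 1752 (without library 23), with 525 without library 26. Why these counts moved was not tested. Of 534 values of 29 genes (those of lowest p with Ceacam1, Ceacam2, Zfp526 and Rasal3), 532 kept direction and side of the threshold and none reversed. Most of these genes were chosen for low p in the same libraries, and the second lowest limma adjusted p was 0.999. Their direction and side were thus largely set by the choice. Of 601 medians of the 43 lists, 599 moved by less than the spread between libraries, which is wide, and the lymphocyte list had no gene left at a mean of at least 50. A median can turn sign within that spread. Leaving out 1 library turned it in 18 of the 24 pathway lists and 9 of the 19 tissue lists. Of 57 ranges of tissue sums, 1 moved further: the adipocyte list, from 1.70 to 3.83 on the log2 scale without its leading member. Mitochondrial genes were 7 of the 20 most abundant and 8 with the longest transcript. No paired analysis was possible because the library numbers are not shared between groups. Limits were 4 libraries a group, unknown read depth and unlabelled sex.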

Other observations

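Xist, the RNA of the inactive X chromosome, was at 4.07 in wild type library 21 and 195 in Ceacam1-/- library 25, the libraries with Y-linked counts of 7762 and 5256. It was at 4013 to 5791 in the other 6 libraries.

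Hmgcs1, an early enzyme of cholesterol synthesis, was highest in library 23 (8875) and next in library 22 (6479), against 1549 to 3424 in the other 6, and Fdps, further along the pathway, was highest in libraries 28 (6851) and 22 (5783), against 1194 to 2368. Hspa5, the chaperone of the endoplasmic reticulum, varied little, from 10363 in library 25 to 21637 in library 21.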
